A study of Mus musculus with 3 samples.

Results

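The genes examined here encode the engine of the cell division cycle: the cyclins, the cyclin-dependent kinases (CDKs) that they activate, the CDK inhibitors, the E2F transcription factors and pocket proteins, the Mcm helicase genes of replication licensing, and a set of widely used proliferation genes. Members were taken by symbol, namely the Ccn genes with a letter and an optional digit, the numbered Cdk, E2f and Mcm genes, Cdkn1 to Cdkn3 with an optional letter, and Rb1, Rbl1, Rbl2, Mki67, Top2a, Birc5, Pcna, Aurka, Aurkb and Plk1. Of 79 such symbols in the reference gene table, 77 had a probeset of their own among the 19938 genes measured. Ccnb1 and Cdkn1a had none, although Cdkn1a shares a probeset with another gene, and they are not given values. Signals were measured in GFP-positive cells sorted from the renal cortex, without glomeruli, of adult mice that carry the Tg(TIE2GFP)287Sato transgene on a mixed, mainly CD-1 background. All 3 samples, called replicates 1, 2 and 3, are of this genotype and tissue, each from 1 kidney, with no treatment, so that they form a single group and no genotypes, ages or compartments could be compared. GFP in these mice follows the promoter of Tek (Tie2), which is also used by some blood cells.

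To divide, a cell in G1 raises its D-type cyclins, which with Cdk4 and Cdk6 phosphorylate the retinoblastoma proteins and release E2F. Free E2F activates the genes of S phase, such as the Mcm helicase that is loaded on origins, and later waves of cyclin A and cyclin B with Cdk1 drive mitosis. In a resting cell the CDK inhibitors hold the kinases, and the pocket protein Rbl2 with E2f4 or E2f5 and the MuvB proteins (the DREAM complex) keeps cell cycle promoters silent. The endothelium of adult organs is known to renew slowly, and most of its cells rest outside the cycle.

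The array signal of each gene is given on the log2 scale at its probeset with the highest mean. It was set against a signal of 100, a log2 value of 6.64. The study asked for a raw level of 100 in 3 samples, whereas here the limit was set on the deposited, normalized values. "Above" and "below" stand for a mean over or under this level by a one-sided moderated test of limma (Benjamini-Hochberg adjusted p under 0.05 over the 35557 probesets), and "neither" for the rest. In 43 of the 77 members, against 51.2% of all genes, the 3 samples held the same value to 5 decimals. Such values carry no measure of replicate error, and their p-values rest on a spread borrowed from the other probesets. These p-values also count residual degrees of freedom that equal values do not supply, so they are too small. Leaving out a replicate does not change the means of these genes. It leaves fewer samples and a larger borrowed spread, with a median SD from 0.211 to 0.216, against 0.111. For these genes a call lost or kept in such a fit says nothing on how well the samples agree. The labels do not say whether the kidneys came from separate mice. For genes whose values differ, the p-values rest on the spread between these 3 samples, moderated by the spread of other probesets. Whether that is a spread between mice is not known. Signals depend on the probes, so the levels of different genes were not ranked. In bulk samples fewer cells of a type and less RNA per cell cannot be told apart.

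Endothelial markers were all present, with 10 of 10 above, against 21.2% of all genes, among them Pecam1, Cdh5, Tek and Tie1 with mean log2 signals of 10.07, 10.62, 10.41 and 8.16. Of the proximal tubule markers 7 of 8 were above, among them Kap, Aqp1, Slc34a1 and Lrp2 at 12.86, 11.03, 9.53 and 9.39 on average. Of the thick ascending limb and distal markers 4 of 5 were above, namely Umod, Slc12a1, Slc12a3 and Calb1, with means from 7.76 to 10.75. The sorted samples thus also held tubular RNA, whose part in the signals of the members was not tested. Of the leukocyte markers 5 of 5 were below, among them Ptprc at 5.12, against 63.1% of all genes. Of the podocyte markers 2 of 3 were below (66.7%), which is near that share, while Podxl, which endothelium also expresses, was above at 9.26 in each sample. Medians of the columns were 5.70, 5.70 and 5.66 for replicates 1, 2 and 3.

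Over all roles together the shares were near those of the array. Of the 77 members 21 were above a signal of 100 (27.3%), against 21.2% of all genes, 43 were below (55.8%), against 63.1% of all genes, and 13 were neither. Their median log2 signal was 6.09, against 5.88 for all genes. Without a test, 26 members had a signal of 100 or more in each sample, where 28.0% of all genes did. Leaving out replicate 1, 2 or 3 gave 12, 10 or 15 members above, and 10 members were above in each of these fits. The number below was between 37 and 41 in these fits. For members with equal values the fits say nothing on how well the samples agree.

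Genes of dividing cells mostly lay under the limit in the sorted cortical samples. Of 27 proliferation genes 25 were below a signal of 100 (92.6%), against 63.1% of all genes, Pcna was above and Birc5 was neither. Their median log2 signal was 5.46, against 5.88 for all genes, while the lower quartiles were nearly equal at 4.91 and 4.93. Genes of resting cells, that is the CDK inhibitors, Rb1, Rbl2, E2f4, E2f5, Ccng1 and Ccng2, were divided, with 5 of 12 above (41.7%), against 21.2% of all genes, 4 below and 3 neither, and a median of 6.64. These lists were written with earlier results of these samples known, and no test was made between them. Whichever replicate was left out, 23 of the 25 proliferation genes stayed below, Cdk2 and Mcm6 being the exceptions. The number of quiescence genes above was 3 in each of these fits, which left Cdkn1b, Rb1 and Ccng1. In 18 of the 27 proliferation genes, and in Cdkn1b and Ccng1, the values are equal in all samples. For these, a call that is kept says nothing on how well the samples agree.

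**Figure D1:**
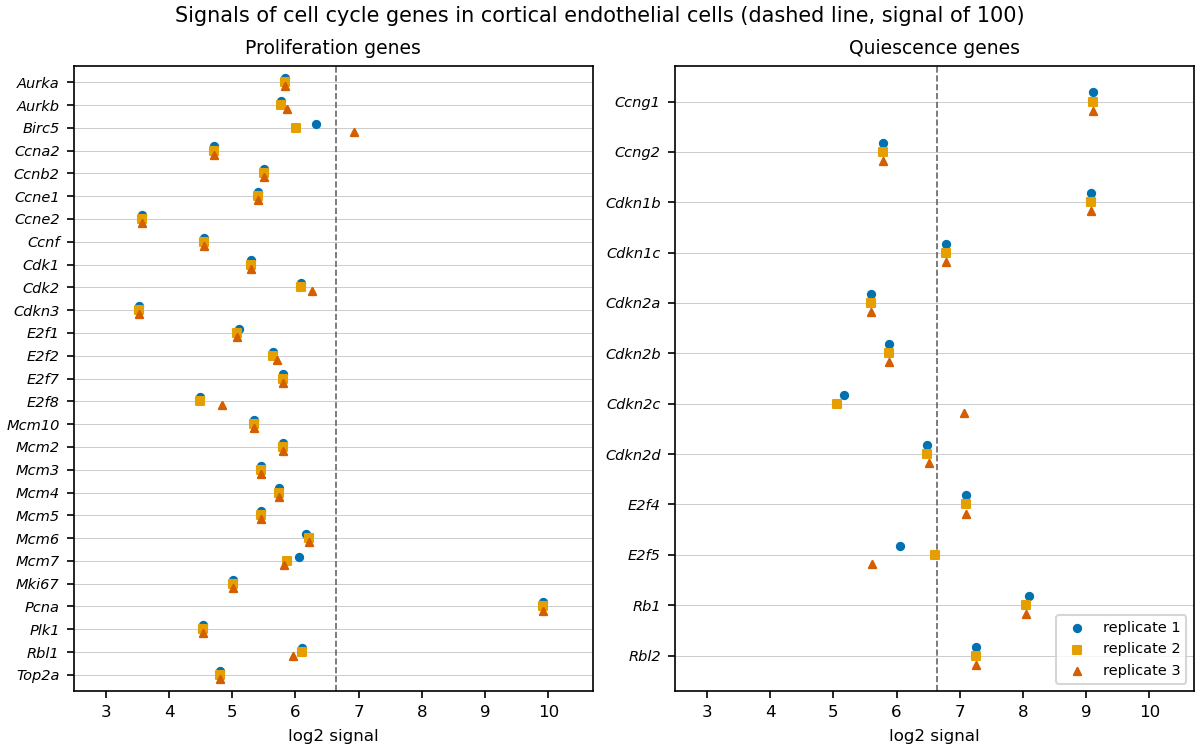
Log2 signal (horizontal axis) of each measured proliferation gene (left) and quiescence gene (right) in the 3 samples of cortical endothelial cells, 1 symbol per replicate. The dashed line is a signal of 100 (log2 of 6.64). Of the proliferation genes, Pcna lies to the right of the line in all samples and Birc5 in replicate 3, while 6 of the 12 quiescence genes lie to the right in all samples.

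**Figure D2:**
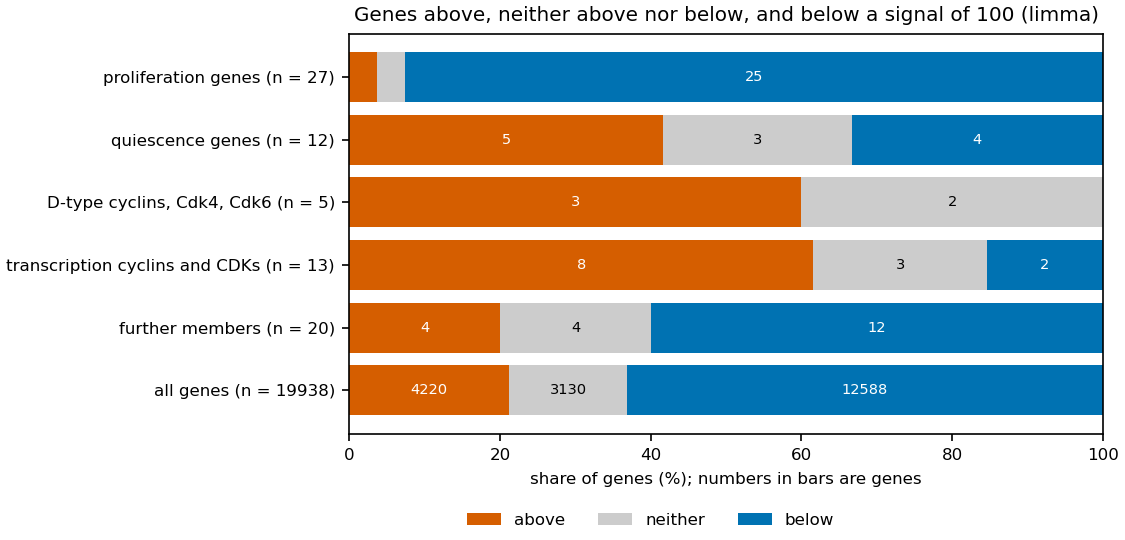
Share of genes (horizontal axis, in percent) above, neither above nor below, and below a signal of 100 by limma, for the members by role and for all 19938 genes. Below the limit were 25 of 27 proliferation genes, 4 of 12 quiescence genes and 0 of 5 genes of the D-type cyclins and their kinases.

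Mki67, the gene of the proliferation antigen that is lost when cells rest, had 5.01 on the log2 scale in all samples, which is a signal of 32.2 (limma, adjusted p = 0.000224). Ccno, another member, held the same value in each sample, to 5 decimals. The mitotic genes lay with Mki67. Cdk1, the kinase of mitotic entry, had 5.30 in each sample (limma, adjusted p = 0.000348). Its cyclin partners Ccna2 and Ccnb2 had 4.71 and 5.50 in each, and Ccnf, the cyclin that serves as an F-box protein, had 4.55. Top2a, the topoisomerase that untangles chromosomes, had 4.81 in each sample, and its second probeset, with 2.93, 4.18 and 2.70, was below as well. Plk1, the polo-like kinase of mitosis, had 4.53 in each. Aurka, the aurora kinase of the spindle poles, had 5.84 in each sample. Aurkb, that of the chromosomal passenger complex, had 5.77, 5.77 and 5.86. Cdkn3, a phosphatase of CDKs that peaks in dividing cells, had 3.53 in each. All of these were below a signal of 100.

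Birc5, the gene of survivin, a partner of Aurkb, was the exception among the mitotic genes. Its log2 signal was 6.32, 6.01 and 6.93 in replicates 1, 2 and 3, which averaged 6.42 ± 0.47 (SD, n = 3) with an adjusted p of 0.294 by limma. Replicate 3 lay over a signal of 100 and the others under it. Aurkb showed no like difference, with a range of 0.10 over the samples.

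The genes of the G1-S transition were mostly below too. Ccne1 and Ccne2, the E-type cyclins that open S phase, had log2 signals of 5.40 and 3.58 in each sample. Their kinase Cdk2 had 6.09, 6.09 and 6.26, on average 6.15 ± 0.10 (SD, n = 3), and was below with an adjusted p of 0.00409 by limma. Its adjusted p was 0.0514 without replicate 1 and 0.0514 without replicate 2. The activating E2F genes E2f1 and E2f2 were below, at 5.08 ± 0.02 and 5.67 ± 0.03 (SD, n = 3). So were the atypical repressors E2f7 and E2f8, which rise in S phase, at 5.81 ± 0.00 and 4.60 ± 0.19. Rbl1, the pocket protein of cycling cells, was below at 6.06 ± 0.08. The remaining activator E2f3 was neither, at 5.91, 6.80 and 6.80, and its other probeset was below at 4.93 in each sample.

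All 9 Mcm genes were below a signal of 100, against 63.1% of all genes, and 0 were above by limma (0 also at an unadjusted p under 0.05), against 21.2% of all genes. Mcm2 to Mcm7, which form the ring of the replicative helicase, had means from 5.45 for Mcm3 to 6.20 for Mcm6. Mcm2, Mcm3, Mcm4 and Mcm5 had 5.80, 5.45, 5.74 and 5.46 in each of the samples. Mcm6 had 6.17, 6.22 and 6.22, and without replicate 1 its adjusted p was 0.0865. Mcm7 had 6.06, 5.87 and 5.82, and its samples stayed under the limit in every case. Mcm10, a factor of origin firing, had 5.35 in each sample. Mcm8 and Mcm9, which form a helicase of recombination repair, had 4.25 ± 0.00 and 5.71 ± 0.28 (SD, n = 3).

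Pcna, the sliding clamp of DNA polymerases, was the proliferation gene above the limit. All samples had 9.91 on the log2 scale, which is a signal of 964 (limma, adjusted p = 0.000426). A second probeset of Pcna had 9.76 in each, so both were above. Pcna is known to serve DNA repair as well as replication. The probeset with 9.76 stands, in the order of probeset numbers, among probesets of genes of chromosome 19 (19 of its 20 neighbours), whereas Pcna is on chromosome 2. Whether that probeset reads a near-identical copy was not tested.

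Promoter sequence, which the choice of members did not use, was searched next. Windows of 300 bases, 250 before and 50 after the start of the gene, were found for 61 of the 77 members in RefSeq (GRCm38.p6) and searched on both strands for 3 motifs. These were the CHR (TTTGAA), at which MuvB binds, the CCAAT box (CCAAT) of NF-Y, and the E2F site (TTTCCCGC, TTTCGCGC, TTTGCCGC or TTTGGCGC). An E2F site was found in 9 of the 21 proliferation genes that were below and had a window (42.9%), against 1 of 8 quiescence genes (12.5%) and 2.60% of all 27025 genes with a window. A CHR was in 11 of the 21 (52.4%), against 2 of 8 quiescence genes and 20.2% of all genes, and a CCAAT box in 18 (85.7%), against 5 of 8 (62.5%) and 41.1%. Over all 23 proliferation genes with a window, whatever their call, the shares were close to these. They were 39.1% for the E2F site, 47.8% for the CHR and 82.6% for the CCAAT box. The list was chosen for a part in division, so these shares do not tie the motifs to a signal below the limit. A gene with several windows was counted when any of them held the motif. A match is a string of letters and no binding was measured.

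The windows of 4 genes are printed to show this, Cdk1 and Mcm5 as genes below the limit, Pcna as the proliferation gene above it and Cdkn1b as a quiescence gene above it. Capitals mark matches to any of the motifs on either strand. Cdk1 (chr10:69352863-69353162, minus strand) holds a CHR at -71 and at -15, counted to the first base of the match from the start of the gene, an E2F site at -131 and 3 CCAAT boxes on the other strand. Mcm5 (chr8:75109259-75109558, plus strand) holds overlapping E2F sites at -153 and -149, on opposite strands, and 3 CCAAT boxes but no CHR. Pcna (chr2:132253131-132253430, minus strand) holds a CCAAT box at -87, on the other strand, and neither of the other motifs. Cdkn1b (chr6:134920151-134920450, plus strand) holds 3 CCAAT boxes and neither of the other motifs.
Cdk1: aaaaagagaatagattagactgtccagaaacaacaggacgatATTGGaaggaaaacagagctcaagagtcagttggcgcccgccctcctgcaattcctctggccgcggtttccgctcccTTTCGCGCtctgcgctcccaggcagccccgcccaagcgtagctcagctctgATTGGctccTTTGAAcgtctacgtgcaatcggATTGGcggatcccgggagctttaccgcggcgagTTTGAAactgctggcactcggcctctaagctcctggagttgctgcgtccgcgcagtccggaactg
Mcm5: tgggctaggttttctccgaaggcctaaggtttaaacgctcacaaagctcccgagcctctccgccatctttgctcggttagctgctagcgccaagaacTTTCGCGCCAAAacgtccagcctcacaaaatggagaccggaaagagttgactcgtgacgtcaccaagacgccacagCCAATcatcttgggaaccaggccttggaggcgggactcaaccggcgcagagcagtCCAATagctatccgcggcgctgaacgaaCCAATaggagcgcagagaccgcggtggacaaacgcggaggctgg
Pcna: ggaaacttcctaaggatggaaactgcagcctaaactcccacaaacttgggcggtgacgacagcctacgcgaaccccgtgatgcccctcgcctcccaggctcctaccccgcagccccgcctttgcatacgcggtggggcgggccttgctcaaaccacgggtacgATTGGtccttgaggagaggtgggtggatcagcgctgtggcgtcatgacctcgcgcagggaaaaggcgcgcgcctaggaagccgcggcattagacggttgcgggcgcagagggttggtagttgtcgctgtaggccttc
Cdkn1b: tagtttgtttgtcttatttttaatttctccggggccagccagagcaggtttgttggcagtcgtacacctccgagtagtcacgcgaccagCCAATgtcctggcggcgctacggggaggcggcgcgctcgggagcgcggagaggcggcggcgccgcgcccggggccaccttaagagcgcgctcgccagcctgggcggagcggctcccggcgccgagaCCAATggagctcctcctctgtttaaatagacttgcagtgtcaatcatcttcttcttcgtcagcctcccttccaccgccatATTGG

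Among the quiescence genes, the inhibitor above the limit was Cdkn1b, which encodes the Cip/Kip protein that holds cyclin E with Cdk2 inactive in resting cells. All samples had 9.07 on the log2 scale, which is a signal of 538 (limma, adjusted p = 0.000894). A second probeset had 7.24, 6.92 and 6.92 and was neither, so the call depends on the probeset. Cdkn1c, the imprinted member of this family, lay close to the limit at 6.78 in each sample (limma, adjusted p = 0.363).

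The INK4 genes, whose proteins bind Cdk4 and Cdk6, were not above. Cdkn2a and Cdkn2b had 5.59 and 5.88 in each sample and were below. Cdkn2d was just below, at 6.48, 6.48 and 6.52 (limma, adjusted p = 0.035), and was neither whichever replicate was left out, with adjusted p from 0.295 to 0.303. Cdkn2c had the widest range of all members, with 5.17 in replicate 1, 5.06 in replicate 2 and 7.07 in replicate 3. It averaged 5.77 ± 1.13 (SD, n = 3) and was neither (limma, adjusted p = 0.154). Without replicate 3 it was below (adjusted p = 0.00461).

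Of the pocket proteins and E2F genes of resting cells, Rb1, Rbl2 and E2f4 were above and E2f5 was neither. Rb1, the retinoblastoma gene, had log2 signals of 8.09, 8.04 and 8.04 (adjusted p = 0.00103 from limma). Rbl2, the pocket protein of resting cells, had 7.25 in each sample (adjusted p = 0.0172), and E2f4, its partner, had 7.09 in each (adjusted p = 0.0343). Both calls were lost whichever replicate was left out, with adjusted p from 0.122 to 0.171 for Rbl2 and from 0.211 to 0.283 for E2f4. As their values are equal in all samples, their means did not change, and the loss reflects fewer samples and the borrowed spread. E2f5, the other partner, had 6.06, 6.61 and 5.61 and was neither, with each sample under the limit. Without replicate 2 it was below (adjusted p = 0.0312). E2f6, a repressor that works without pocket proteins, had 6.87, 7.66 and 5.95, so that its samples lay on both sides of the limit. Ccng1, a target of p53, had 9.10 in each sample, which is a signal of 550 (limma, adjusted p = 0.000864). Ccng2, a cyclin of arrested cells that FoxO factors induce, was below at 5.78 in each.

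Of the D-type cyclins and their kinases, which act first in the cycle, 3 of 5 were above a signal of 100, against 21.2% of all genes, and 0 were below by limma (0 at an unadjusted p under 0.05), against 63.1% of all genes. All 5 had a signal of 100 or more in each sample. Cdk4 was above at 8.49 in each sample (limma, adjusted p = 0.00164). Ccnd2 had 8.50, 9.13 and 9.76 in replicates 1, 2 and 3, on average 9.13 ± 0.63 (SD, n = 3), and was above (limma, adjusted p = 0.0134). Ccnd1 had 7.74, 8.20 and 8.74, on average 8.23 ± 0.50 (SD, n = 3), and was above too (limma, adjusted p = 0.0227). Replicate 1 was lowest and replicate 3 highest for both, and both calls were lost without replicate 2 (adjusted p = 0.0573 for Ccnd2 and 0.0885 for Ccnd1). Ccnd3 was neither, at 6.80, 6.80 and 6.99. Cdk6 had 6.80 in replicates 1 and 2 and 7.92 in replicate 3, and was neither (adjusted p = 0.376).

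**Figure D3:**
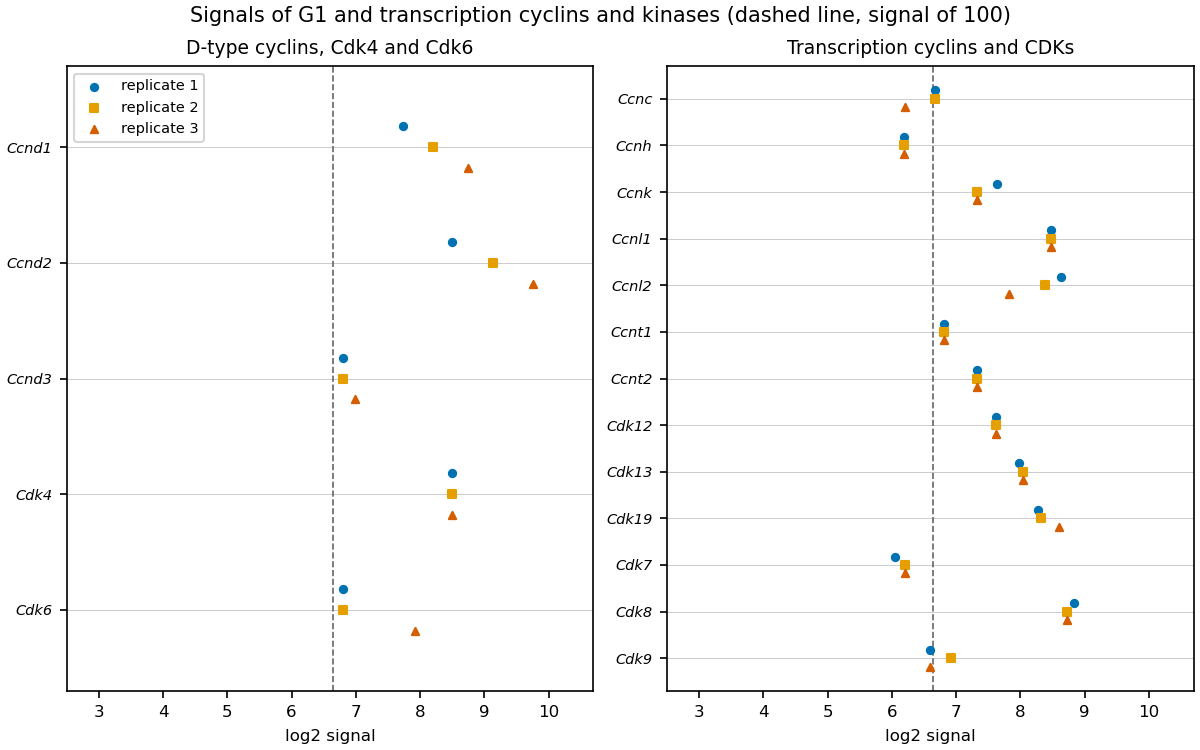
Log2 signal (horizontal axis) of the D-type cyclins, Cdk4 and Cdk6 (left) and of the transcription cyclins and kinases (right) in the 3 samples, 1 symbol per replicate, with the dashed line at a signal of 100 (log2 of 6.64). All 15 points on the left lie to the right of the line, while Ccnh and Cdk7 lie to the left of it in all samples.

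Cyclins and kinases of transcription were often above, as 8 of 13 were (61.5%), against 21.2% of all genes, with 2 below and 3 neither. Of the Mediator kinase module, Cdk8 had log2 signals of 8.83, 8.73 and 8.73 and its paralog Cdk19 had 8.28, 8.33 and 8.60, both above. Their cyclin Ccnc was neither, at 6.67, 6.67 and 6.21. Of the kinases of elongation, Cdk13 was above at 7.98, 8.04 and 8.04, and so was Ccnk, the cyclin of Cdk12 and Cdk13, at 7.64, 7.32 and 7.32. Cdk12 was above at 7.62 in each sample, but its second probeset was below at 5.41 ± 0.01. Of P-TEFb, Ccnt2 was above at 7.32 in each sample, Ccnt1 had 6.82 in each and was neither, and the kinase Cdk9 had 6.59, 6.92 and 6.59 and was neither. Ccnl1 and Ccnl2, cyclins of RNA splicing, were above, Ccnl1 at 8.48 in each sample and Ccnl2 at 8.64, 8.38 and 7.83. Cdk7 and Ccnh, which form the CDK-activating kinase within TFIIH, were both below, Cdk7 at 6.05, 6.20 and 6.20 and Ccnh at 6.19 in each. The calls of Ccnk, Ccnt2, Cdk12 and Ccnh were lost whichever replicate was left out, that of Ccnl2 without replicate 1 or 2, and that of Cdk7 without replicate 1. For Ccnt2, Cdk12 and Ccnh, whose values are equal in all samples, the loss reflects fewer samples and the borrowed spread.

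Of the 20 remaining members, 4 were above, against 21.2% of all genes, 12 were below, against 63.1% of all genes, and 4 were neither. Ccni, a cyclin of postmitotic cells, was above at 9.67, 10.05 and 9.71. That probeset stands among probesets of chromosome 14 genes (19 of 20 neighbours), whereas Ccni is on chromosome 5. The probeset among chromosome 5 genes had 9.08 in each sample and was above too. Cdk17 was above at 8.53, 8.60 and 7.67, its relative Cdk16 at 7.29 in each sample, and Ccny, the membrane-bound cyclin that activates kinases of this group, at 7.90, 7.90 and 7.55. Cdk5, a kinase best known from neurons, had 6.92, 6.37 and 5.67 and was neither, with replicate 1 over the limit and the others under it. Cdk10 had 6.95 in each sample and was neither, as was its second probeset at 6.69. The germ cell cyclins Ccna1 and Ccnb3 were below at 4.25 ± 0.00 and 3.43 ± 0.03. Also below were Ccnj, at 4.75, 5.60 and 4.75, Ccno, a cyclin of multiciliated cells, at 5.01 in each, and Ccnq, Cdk3, Cdk14, Cdk15, Cdk18 and Cdk20, with means from 4.50 for Cdk15 to 6.28 for Cdk18. The calls of Cdk16 and Cdk18 were lost whichever replicate was left out, with adjusted p from 0.0999 to 0.155, and those of Ccny and Cdk17 without replicate 1 or 2, with adjusted p from 0.0581 to 0.0912. For Cdk16 and Cdk18, whose values are equal in all samples, the loss reflects fewer samples and the borrowed spread.

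The samples differed most in a few members. A range of 0.5 or more on the log2 scale was seen in 13 of the 77 members (16.9%), against 12.8% of all genes. Replicate 3 was highest in 5 of them, Birc5, Ccnd1, Ccnd2, Cdk6 and Cdkn2c, replicate 2 in 5, Ccnj, Cdk17, E2f5, E2f6 and Mcm9, and replicate 1 in Ccnl2 and Cdk5, while replicates 2 and 3 were equal for E2f3. Of the 2552 genes on the array with such a range, 817, 695 and 853 were highest in replicates 1, 2 and 3, and 187 were tied. After quantile normalization of the 3 columns the highest sample was the same for 12 of the 13, while replicate 3 became highest for E2f3 (5.90, 6.79 and 6.83). The values were then 8.47, 9.10 and 9.82 for Ccnd2 and 5.18, 5.04 and 7.11 for Cdkn2c. Mural cell markers moved with replicate 3. All 6 of them were highest there, and their summed signal was 1590, 1590 and 3450 in replicates 1, 2 and 3, with Myh11 at 7.79, 8.14 and 9.44. Of the 6, Acta2 (8.43, 7.97 and 9.50) and Rgs5 (9.65, 9.70 and 10.64) were above, Cspg4 was below and the others were neither. The summed signal of the 10 endothelial markers was 11800, 12300 and 9880. The part of mural cells in the signals of Ccnd1, Ccnd2, Cdk6, Cdkn2c and Birc5 was not tested.

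**Figure D4:**
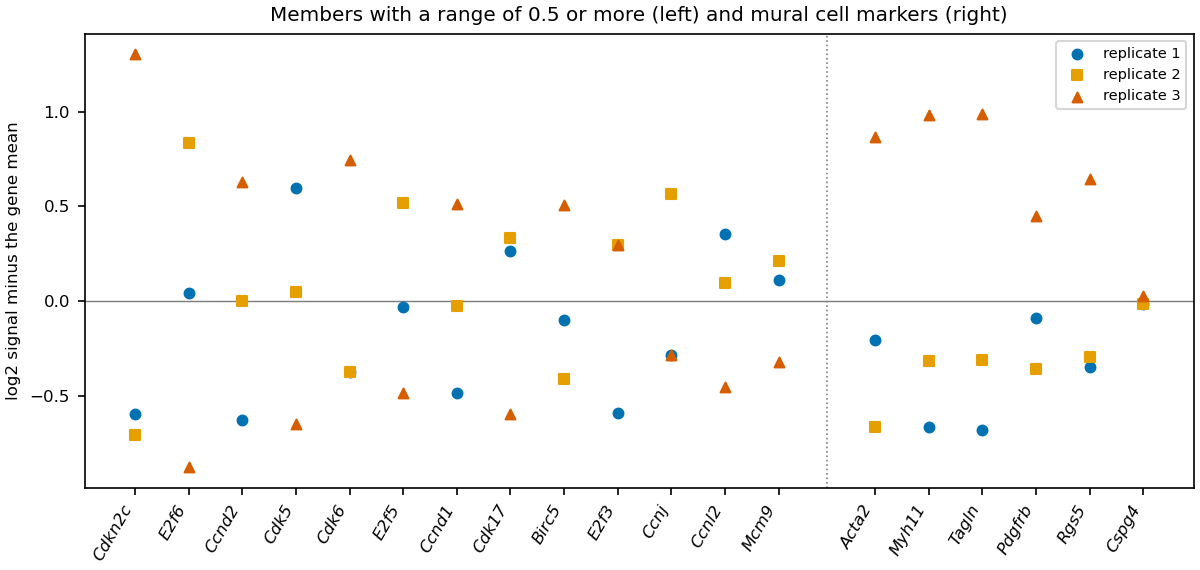
Log2 signal minus the mean of the gene (vertical axis) in each of the 3 samples, for the 13 members with a range of 0.5 or more (left of the dotted line, ordered by range) and for the 6 mural cell markers (right). Replicate 3 is highest for Cdkn2c, Ccnd2, Cdk6, Ccnd1 and Birc5 and for all 6 mural markers, and lowest for E2f6, Cdk5, E2f5, Cdk17, Ccnl2 and Mcm9.

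Other genes of the pathway were read from lists written by function. Of 16 genes of origin licensing and firing 4 were above, against 21.2% of all genes, and 11 were below (68.8%), against 63.1% of all genes. The licensing factors Cdc6 and Cdt1 were below, at 4.81 ± 0.11 and 5.70 ± 0.00 (SD, n = 3), as was Gmnn, the gene of the licensing inhibitor geminin, at 4.80 ± 0.12. The genes above were Orc3 (7.37, 8.24 and 8.16) and Orc4 (7.90, 8.23 and 7.77) of the origin recognition complex and Gins2 (7.13 in each) and Gins4 (8.15, 8.35 and 8.67) of the GINS complex. The other GINS genes, Gins1 and Gins3, were below at 3.84 and 4.95.

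Of 12 genes of mitosis and its checkpoint 11 were below (91.7%), against 63.1% of all genes, and 0 were above by limma (0 at an unadjusted p under 0.05), against 21.2%. They included Foxm1, the transcription factor of mitotic genes, at 5.69 in each sample, and Mybl2, the activator that joins MuvB in cycling cells, at 5.59 in each. The remaining gene, Cenpa of the centromere, had 6.08, 6.08 and 6.79. Like Birc5 it lay over the limit in replicate 3 and under it in the others. Of 7 kinases and phosphatases of cell cycle entry 6 were below (85.7%), against 63.1% of all genes, and 0 were above by limma (1 at an unadjusted p under 0.05), against 21.2%. The other was Pkmyt1, a kinase that restrains Cdk1, at 6.88 in each.

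The E2F partners Tfdp1 and Tfdp2 were above, at 8.17 and 7.14 in each sample. Of the MuvB core, Rbbp4 was above at 7.04, 7.46 and 7.29, Lin37 was neither at 6.66, 6.76 and 7.23, and Lin9, Lin52 and Lin54 were below, with means of 5.02, 5.45 and 5.50. Together 3 of these 7 genes were above (42.9%), against 21.2% of all genes, and 3 below (42.9%), against 63.1%. Of 9 measured genes of arrest and antiproliferative function 5 were above (55.6%), against 21.2% of all genes. Tob1 and Btg1, of the family of antiproliferative BTG/TOB proteins, had 8.81 and 8.08 in each sample, and Btg2 had 7.69, 7.70 and 7.15. Foxo1, the FoxO factor known to restrain endothelial growth, had 7.51 in each, and Gas1, a growth arrest gene, had 7.06 in each. Foxo4 was below at 5.30 ± 0.04 (SD, n = 3). Of the 12 genes above in these lists, 5 were above whichever replicate was left out, namely Orc4, Gins4, Tfdp1, Btg1 and Tob1. For Tfdp1, Btg1 and Tob1, whose values are equal in all samples, this says nothing on how well the samples agree. Of 8 immediate early genes, which stress such as tissue dissociation can induce, 6 were below (75.0%), against 63.1% of all genes, among them Fos at 5.89 in each. The others, Jun with 8.67, 8.67 and 8.65 and Dusp1 with 9.01, 8.61 and 8.32, were above.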

How the data were processed

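GFP-positive cells were sorted from the renal cortex of adult Tie2-GFP mice, RNA was amplified in 1 round, and Affymetrix mouse gene arrays were hybridized. The values deposited by the authors are log2 signals in a column for each of the 3 samples, summarised per probeset and normalized between arrays. The methods name RMA in GeneSpring, and the submitters' processing notes name Affymetrix Expression Console; its version is not given in the sources used here. Arrays have no read depth, and precision is limited by having 3 of them.

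Of 35557 probesets, 21789 had 1 gene by the array's probe annotation, 1621 had several and 12147 had none. Members and lists were chosen with earlier results of these data known. Every member is accounted for by role. Members above or neither are named with their values in every sample, members below in the proliferation list with their level, and the rest of those below by range and examples. The genes above in the other lists are named where they number 5 or fewer, and otherwise up to 4 are.

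An intercept was fitted to every probeset (limma 3.58.1, R 4.3.3) and set against log2 of 100, with a mean-variance trend. The prior variance was estimated on probesets whose 3 values were not all equal (prior degrees of freedom 0.937, residual 2), and the 40.5% with equal values took that prior (median SD 0.111). Tests of equal values still counted the 2 residual degrees of freedom, which hold no information there. Their p-values are thus smaller than the prior alone would give. An adjusted p under 0.05 was called. The fit was also run on simulated data with set distances from the limit. Their spreads varied less between probesets than those here, and their equal values were placed at random. The simulation thus does not bear on the p-values of the probesets with equal values. Other limits, spreads, normalizations, probeset rules and omitted replicates were tried. No groups, pairs or batches could be compared. Promoters were searched in Python 3.11.15.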

Additional observations from a re-analysis of the deposited data

How the results depend on the processing

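The limit set the counts most. With a limit of 50, 38 members were above and 20 below, with 5 and 12 of the proliferation genes, 8 and 0 of the quiescence genes, and 19 genes of the other lists above. With a limit of 200, 10 members were above, with 3 of the quiescence genes above and 9 below, and 2 genes of the other lists above. Leaving out each replicate gave 10 to 15 members above, 3 to 3 quiescence genes above and 5 to 6 genes of the other lists above, from fewer samples. In the fits with another spread, trend, normalization, adjustment or probeset rule, or no test, each of these counts stayed within 1.5 times its value. Keeping a spread of 0 for equal values gave 24 members above, the added genes being Ccnt1, Cdk10 and Cdkn1c. No paired analysis was possible because there is only 1 group.

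Some members changed side. With a limit of 50, means that had been under 100 lay over the limit by 0.20 for Aurka, 0.15 for Aurkb, 0.14 for Ccng2, 0.55 for Ccnh, 0.64 for Cdk18, 0.50 for Cdk2, 0.33 for Cdk20, 0.50 for Cdk7, 0.24 for Cdkn2b, 0.85 for Cdkn2d, 0.03 for E2f2, 0.17 for E2f7, 0.15 for Mcm2, 0.09 for Mcm4, 0.56 for Mcm6, 0.27 for Mcm7, 0.06 for Mcm9 and 0.41 for Rbl1 on the log2 scale. With a limit of 200, the mean minus the limit was -0.22 for Ccnk, -0.32 for Ccnt2, -0.02 for Cdk12, -0.36 for Cdk16, -0.56 for E2f4 and -0.40 for Rbl2. Cdk12 lay under 100 at the mean of its probesets (-0.13) and at the lower of them (-1.23). At its lower probeset Cdkn1b was over the limit by 0.38 and no longer above by the test (limma, adjusted p = 0.0748). With probesets of several genes also used, Top2a was no longer below by the test (adjusted p = 0.168).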

Other observations

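Values were shared between genes as well as between samples. Of all probesets, 35.6% had the same value as another probeset in each of the 3 columns, to 5 decimals. Among the members this held for Mki67 and Ccno, for Cdk3 and Cdk14, and for Ccna1 and Mcm8. The cause of the equal values was not tested.

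For Cdk10, as for Ccni, the probeset with the highest mean stands among probesets of another chromosome, here chromosome 1 (18 of 19 neighbours that have a position), whereas Cdk10 is on chromosome 8. The gene's other probeset, among those of chromosome 8, had 6.69 in each sample, closer to the limit. The highest probeset of Cdk6, a chromosome 5 gene, had 10 of 20 neighbours on chromosome 4.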
